A study of Mus musculus with 6 samples.

Results

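Aminoacyl-tRNA synthetases are the enzymes that join each amino acid to its transfer RNA. The transcripts described here are those of 38 synthetase genes out of the 24532 genes in the deposited table. They were chosen by gene symbol alone: a single capital letter for the amino acid followed by "ars", with or without the suffix 2, plus *Eprs*, *Farsa*, *Farsb* and *Tarsl2*. The 21 symbols without the suffix, *Tarsl2* among them, are counted as cytosolic synthetases and the 17 with it as mitochondrial ones. None was lost to the filter on low counts that edgeR applies, so all 38 were tested.

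The cytosolic enzymes charge the tRNAs that read nuclear messages, and most amino acids have a separate nuclear gene for the enzyme that works on mitochondrial tRNAs. *Kars* and *Gars* each serve both compartments from a single gene, and *Eprs* carries the glutamyl and prolyl activities on a single polypeptide. Several cytosolic synthetases sit together with 3 scaffold proteins in the multisynthetase complex. When charging fails and uncharged tRNA accumulates, the kinase GCN2 starts the integrated stress response, whose transcription factor ATF4 is known to induce a number of cytosolic synthetase genes through a promoter sequence called the amino acid response element.

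RNA of the gastrocnemius (GAS) muscle, a mixed hind limb muscle of mostly fast fibers, was sequenced from C57BL/6 mice of 20 weeks, males by the study's methods, in 2 groups of 3 libraries. Mice of the WT group were *Sirt6* flox/flox without Cre, and mice of the *Sirt6* KO group were *Myl1-Cre*; *Sirt6* flox/flox, so both groups carried the floxed alleles. The *Myl1* promoter drives Cre mainly in type II (fast) fibers, so the deletion was aimed at those fibers and not at the other cells of the muscle, and the study's methods and its reporting summary name different floxed lines. The deposited read counts summed to between 44845763 and 63016899 per library, of which the 38 synthetases took between 0.219% and 0.234%. The labels number the libraries of a group and do not say that each came from its own mouse. The study's reporting summary states biological replicates for its experiments, and a figure legend says that samples were analyzed in triplicate. The p-values therefore measure the spread between these samples, which may be technical.

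*Sirt6* itself went against the labels. On the scale of counts scaled to library size with TMM factors (CPM), it stood at 2.77, 2.23 and 2.88 in WT libraries 1, 2 and 3, and at 7.81, 7.44 and 6.68 in libraries 1, 2 and 3 labelled *Sirt6* KO. The groups did not overlap, and the log2 fold change was 1.48 (SE 0.17, edgeR quasi-likelihood test, adjusted p = 0.0113). A gene count sums over all exons and does not show which exons the reads came from. The groups are therefore named by their labels throughout, and each direction below is that of the libraries labelled *Sirt6* KO relative to those labelled WT.

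Levels in TPM are per transcript length, scaled to the same sum in each library. The 10 skeletal muscle fiber markers summed to 179643, 181429 and 224521 TPM in WT libraries 1, 2 and 3. In *Sirt6* KO libraries 1, 2 and 3 they summed to 233884, 228953 and 245639 TPM, all above WT. In CPM the groups overlapped, with WT library 3 at 229052 and *Sirt6* KO library 1 at 222895. WT library 3 stood apart from the other WT libraries. Its 8 slow fiber markers summed to 513 TPM, against 6592 and 5967 in WT libraries 1 and 2, and 798, 3358 and 1025 in the *Sirt6* KO libraries. Its 6 erythroid markers summed to 122 TPM, against 1020.2 and 998 in the other WT libraries and 240.02 to 506 in the *Sirt6* KO libraries. Its endothelial (82.4 TPM), fibroblast (398 TPM), Schwann cell (24.7 TPM) and adipocyte (368 TPM) sums were also the lowest of the 6 libraries, while the macrophage sum of 15.5 TPM was close to the 15.4 TPM of WT library 2. No marker in these lists was at 0 in all libraries. The edgeR fits were repeated with this library left out. The levels, sums, ratios, overlap counts and correlations with GC content below all keep it. In bulk muscle, fewer cells of a type and less RNA per cell cannot be told apart.

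All synthetases were expressed in this muscle, and the cytosolic set was the more abundant. The 21 cytosolic transcripts summed to 1294 ± 47.6 TPM in WT and 1235 ± 28.8 TPM in *Sirt6* KO (SD, n = 3 each), and the 17 mitochondrial transcripts to 322 ± 43.5 and 323 ± 13.0 TPM. The cytosolic sum was 3.45 to 4.84 times the mitochondrial sum in the WT libraries and 3.61 to 3.94 times in the *Sirt6* KO libraries, so the groups overlapped.

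Among the cytosolic enzymes, *Nars*, *Eprs* and *Kars* had the highest WT levels. *Nars*, the asparaginyl enzyme, was at 133, 125 and 136 TPM in WT libraries 1, 2 and 3 and at 103, 112 and 101 TPM in the *Sirt6* KO libraries. *Eprs* was at 124, 118 and 115 TPM in WT and at 79.2, 105 and 84.3 TPM in *Sirt6* KO. *Kars*, the lysyl enzyme of both compartments, was at 117, 112 and 119 TPM in WT and at 141, 118 and 123 TPM in *Sirt6* KO. On this scale all WT libraries lay above all *Sirt6* KO libraries for *Nars* and *Eprs*, and the groups overlapped for *Kars*.

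The lowest cytosolic levels were those of *Vars*, *Farsa* and *Hars*. *Vars*, the valyl enzyme, was at 16.5, 15.6 and 17.1 TPM in WT and at 21.4, 16.9 and 18.6 TPM in *Sirt6* KO. *Farsa*, the alpha subunit of the phenylalanyl enzyme, was at 24.9, 25.5 and 24.7 TPM in WT and at 28.6, 28.3 and 30.4 TPM in *Sirt6* KO. *Hars*, the histidyl enzyme, was at 31.6, 26.9 and 31.04 TPM in WT and at 39.0, 39.5 and 36.1 TPM in *Sirt6* KO. The span from the highest to the lowest WT mean, *Nars* to *Vars*, was 8.01-fold. In the order *Nars*, *Eprs*, *Kars*, *Dars*, *Gars*, *Farsb*, *Aars*, *Tarsl2*, *Qars*, *Sars*, *Iars*, *Mars*, *Rars*, *Tars*, *Yars*, *Cars*, *Lars*, *Wars*, *Hars*, *Farsa* and *Vars*, 15 of the 20 neighbors had overlapping WT ranges and do not differ beyond their spread.

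The mitochondrial enzymes spanned a wider range of 34.6-fold, from *Lars2* to *Pars2*. *Lars2*, the leucyl enzyme, was at 77.6, 93.2 and 57.9 TPM in WT and at 105, 80.7 and 80.1 TPM in *Sirt6* KO. *Iars2*, the isoleucyl enzyme, was at 51.9, 55.9 and 46.5 TPM in WT and at 47.6, 43.0 and 45.4 TPM in *Sirt6* KO. *Fars2*, the single-chain phenylalanyl enzyme of mitochondria, was at 33.5, 34.2 and 22.9 TPM in WT and at 23.9, 28.8 and 25.3 TPM in *Sirt6* KO. The groups overlapped for each of these 3 genes. The exons of *Iars2* overlap 2034 bases of *Rab3gap2* on the opposite strand, and since the strand setting of the counting is not stated, reads of the 2 genes may not have been told apart.

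At the low end, *Mars2*, the methionyl enzyme, was at 4.25, 4.17 and 4.14 TPM in WT and at 4.94, 5.74 and 4.101 TPM in *Sirt6* KO. *Ears2*, the glutamyl enzyme, was at 4.38, 3.298 and 3.25 TPM in WT and at 3.17, 2.54 and 2.84 TPM in *Sirt6* KO. *Pars2*, the prolyl enzyme, was the least abundant of all 38 in WT, at 1.94, 2.105 and 2.56 TPM, against 3.5999, 4.61 and 4.903 TPM in *Sirt6* KO. The *Pars2* groups did not overlap. In the order of the 17 mitochondrial WT means, 11 of the 16 neighbors had overlapping WT ranges.

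**Figure D1:**
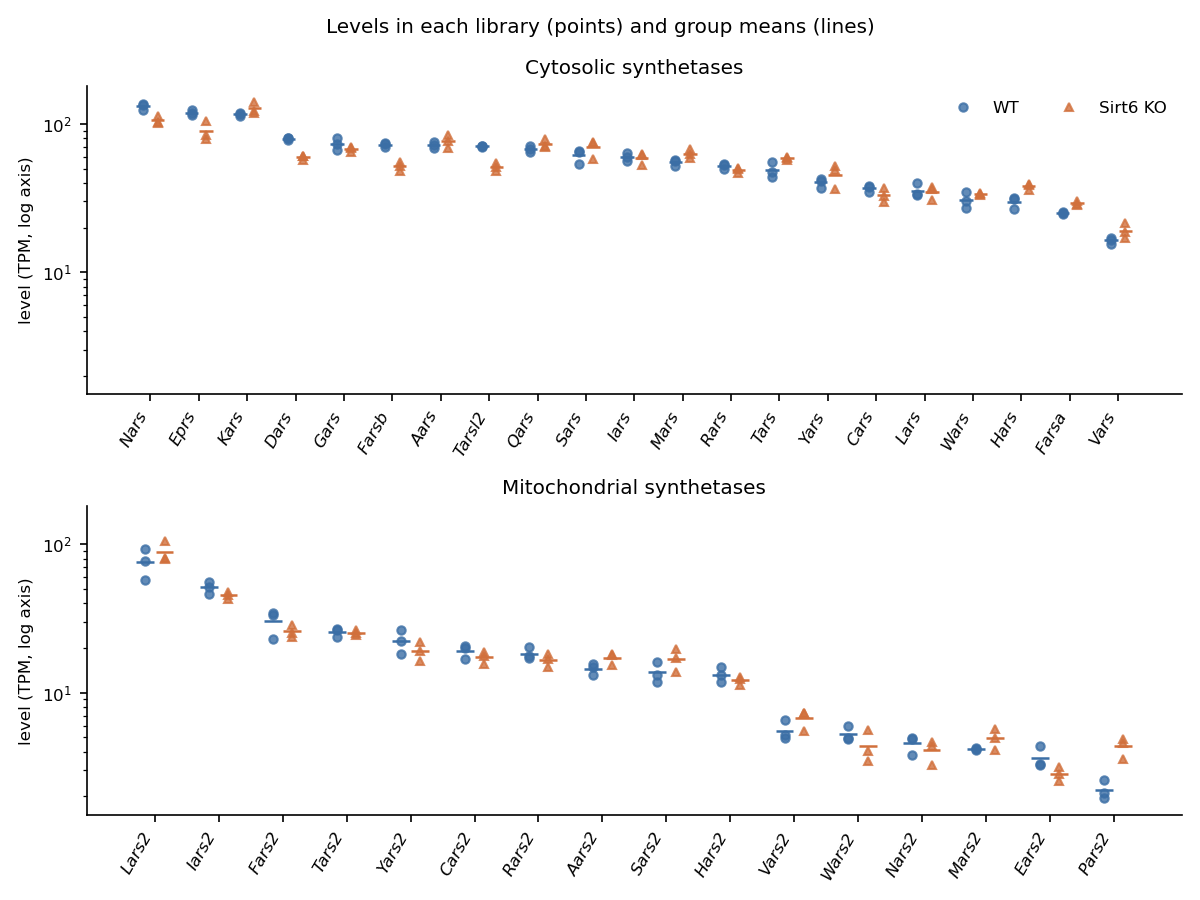
Levels of synthetase transcripts in TPM on a log axis, with 1 point per library (circles WT, triangles *Sirt6* KO, n = 3 each) and a line at each group mean, ordered by the WT mean within each compartment. The cytosolic levels fall from 131 to 16.4 TPM in the WT mean and the mitochondrial levels from 76.2 to 2.203 TPM, where *Pars2* is the last and the one whose triangles sit farthest above its circles.

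For 14 amino acids the cytosolic and the mitochondrial enzyme are encoded by separate genes that differ only by the suffix, and the cytosolic transcript was the more abundant in every library for 13 of them. The WT ratio of cytosolic to mitochondrial TPM had a median of 2.89 over the 14 pairs and reached 28.9 for *Nars* over *Nars2*. The exception was leucine. *Lars* stood at 33.8, 33.1 and 39.7 TPM in WT and 36.6, 37.5 and 30.8 TPM in *Sirt6* KO, below *Lars2* in each library, with a ratio of 0.466 between the WT means. The isoleucyl pair was nearly level, at a ratio of 1.01 to 1.37 in WT, although 1656 bases of the *Iars* transcript have a processed pseudogene copy, *Gm4849*, at 96.0% identity, which the counting could split from it.

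Between the groups, 1 synthetase passed the test. With edgeR's quasi-likelihood test and Benjamini-Hochberg adjustment over all 13801 genes tested, 16.2% of genes had an adjusted p under 0.05 in either direction (7.85% higher and 8.39% lower in *Sirt6* KO). Among the 38 synthetases, 1 was called higher and 0 lower, or 2.63%. At an unadjusted p under 0.05 there were 7 higher and 3 lower synthetases, where 35.3% of all genes reached that level. DESeq2's Wald test called 2 higher (*Hars* and *Pars2*) and 3 lower (*Dars*, *Farsb* and *Tarsl2*), where it called 25.6% of all genes. The cytosolic enzymes had 0 called and the mitochondrial enzymes 1, which is *Pars2*.

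*Pars2* rose. Its CPM was 2.51, 2.91 and 3.09 in WT libraries 1, 2 and 3, and 3.98, 5.30 and 5.86 in *Sirt6* KO libraries 1, 2 and 3. The groups did not overlap, and the means of 2.83 ± 0.298 and 5.05 ± 0.966 (SD, n = 3 each) gave a log2 fold change of 0.83 (SE 0.21, 95% confidence interval 0.35 to 1.31, edgeR adjusted p = 0.0368). With a correction for GC content the log2 fold change was 0.73 and the adjusted p 0.0683, which is no longer past the threshold. Fits with single libraries left out called between 8 and 4582 genes in all, against 2242 with all libraries. In them the adjusted p of *Pars2* lay between 0.0262 and 0.139, and it stayed under 0.05 in 1 of 6 cases, without WT library 3. Its cytosolic counterpart for proline, *Eprs*, was at 250.1, 255 and 288 CPM in WT and at 183, 255 and 206 CPM in *Sirt6* KO, and its fitted log2 fold change was -0.30 (SE 0.15, edgeR adjusted p = 0.201).

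Of the 38 genes, 14 share exon bases with another annotated gene, 12 of them on the opposite strand and 2 on the same strand, and their counts are uncertain to that extent. *Pars2* is not among them.

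The other 37 synthetases did not pass, and most of them were bounded closely. Over all 38, the median log2 fold change was 0.08, against -0.02 over all genes tested, and the median absolute value was 0.23, against 0.35. The values ran from -0.38 to 0.83. The 95% confidence interval lay within a 2-fold change in either direction for 37 of 38 synthetases, with *Pars2* as the exception, and within a 1.5-fold change for 21. In CPM, 6 synthetases had all *Sirt6* KO libraries above all WT libraries and 3 had them all below, or 23.7% together, where the groups did not overlap for 40.0% of all genes (20.3% higher and 19.6% lower).

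**Figure D2:**
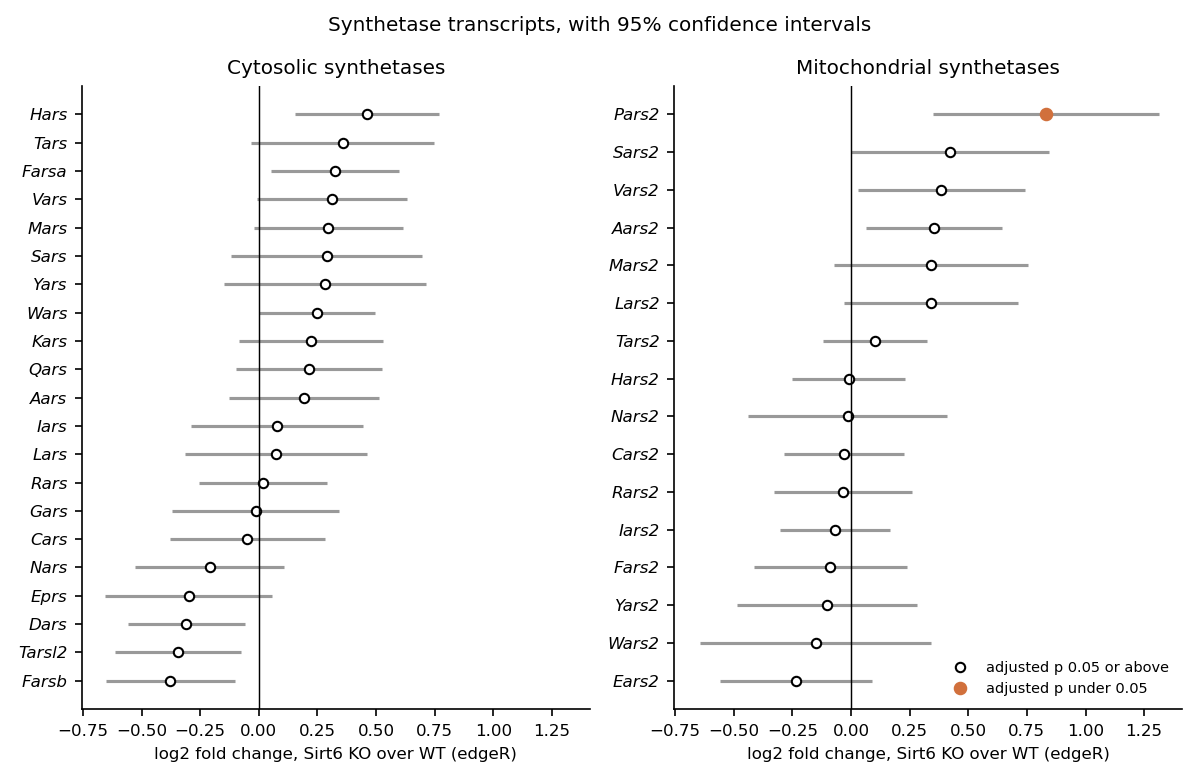
Log2 fold change of *Sirt6* KO over WT for synthetase transcripts (points, edgeR) with its 95% confidence interval (lines), sorted within each compartment, from 3 libraries a group. *Pars2*, the filled point at 0.83, is the only synthetase past the threshold, while the cytosolic values run from -0.38 for *Farsb* to 0.46 for *Hars*.

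By compartment, the 21 cytosolic enzymes had a median log2 fold change of 0.19, with 14 fitted values above 0 and 7 below. The 17 mitochondrial enzymes had a median of -0.01, with 8 above and 9 below. With the GC correction the medians were 0.10 and 0.09. The difference between the compartments was not tested.

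By structural class, the enzymes fall into 2 unrelated folds. Over all genes, 16.2% were called and 40.0% did not overlap between the groups in CPM. The 18 class I enzymes had 0 called and a median of 0.08, and 2 of them did not overlap (11.1%). The 19 class II enzymes had 1 called (*Pars2*) and a median of 0.10, and 7 did not overlap (36.8%), a share near that of all genes. *Eprs*, which joins an enzyme of each class, was left out of both. The 8 enzymes of the multisynthetase complex had 0 called and a median of 0.08, from -0.31 for *Dars* to 0.30 for *Mars*, and the 13 cytosolic enzymes outside it had 0 called and a median of 0.25. With the GC correction the order of these medians turned, at 0.14 for the complex and 0.04 for the enzymes outside it.

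Several cytosolic genes are described next that were chosen after their values were seen, and 0 of them passed edgeR's test. *Hars* was at 26.2, 23.7 and 32.0 CPM in WT and at 37.0, 39.5 and 36.2 CPM in *Sirt6* KO, without overlap. Its log2 fold change of 0.46 (SE 0.13) had an edgeR adjusted p of 0.0529, 0.0152 with DESeq2 and 0.0919 with the GC correction. Its mitochondrial partner *Hars2*, which lies head to head with it on chromosome 18 and overlaps its exons by 195 bases on the opposite strand, was at 19.3, 18.3 and 19.1 CPM in WT and at 18.4, 17.7 and 20.2 CPM in *Sirt6* KO, a log2 fold change of -0.01 (SE 0.10).

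The 2 subunits of the cytosolic phenylalanyl enzyme, which forms a tetramer with equal numbers of alpha and beta chains, stood on opposite sides of 0. *Farsa* (alpha) was at 19.0, 20.7 and 23.4 CPM in WT and at 25.0, 26.02 and 28.1 CPM in *Sirt6* KO, a log2 fold change of 0.33 (SE 0.12, edgeR adjusted p = 0.0955). *Farsb* (beta) was at 69.9, 69.1 and 85.8 CPM in WT and at 59.1, 58.6 and 55.2 CPM in *Sirt6* KO, a log2 fold change of -0.38 (SE 0.12, edgeR adjusted p = 0.0671), and its exons overlap 248 bases of *Sgpp2* on the opposite strand. Neither pair of groups overlapped. The ratio of *Farsa* to *Farsb* in TPM was 0.335 to 0.368 in WT and 0.521 to 0.627 in *Sirt6* KO, so the 2 transcripts were closer in level in every library labelled *Sirt6* KO.

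The 2 cytosolic threonyl genes also had fitted values on opposite sides of 0, but the groups overlapped for *Tars*. *Tars* was at 51.7, 50.9 and 75.9 CPM in WT and at 75.2, 77.8 and 75.6 CPM in *Sirt6* KO, where WT library 3 overlapped the *Sirt6* KO libraries. *Tarsl2*, its paralog, was at 94.1, 99.97 and 116 CPM in WT and at 83.6, 82.6 and 77.9 CPM in *Sirt6* KO, without overlap, and shares 120 exon bases with *Tm2d3* on the same strand. The log2 fold changes were 0.36 (SE 0.17, edgeR adjusted p = 0.17) and -0.35 (SE 0.12, edgeR adjusted p = 0.0801). The ratio of *Tars* to *Tarsl2* in TPM was 0.616 to 0.792 in WT and 1.09 to 1.18 in *Sirt6* KO, which places *Tarsl2* above *Tars* in the WT libraries and below it in the *Sirt6* KO libraries.

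*Dars*, the aspartyl enzyme, was at 75.01, 78.9 and 89.4 CPM in WT and at 64.7, 67.9 and 63.8 CPM in *Sirt6* KO, without overlap, and its log2 fold change of -0.31 (SE 0.11) had an edgeR adjusted p of 0.0867. With the GC correction the *Dars* value was -0.03.

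Of 20 ratios between related synthetases that were compared (cytosolic against mitochondrial, subunit against subunit, paralog against paralog), 5 did not overlap between the groups, among them *Eprs* to *Pars2*, *Hars* to *Hars2*, *Farsa* to *Farsb*, and *Tars* to *Tarsl2*. These ratios, their overlap and their tests were taken in CPM. For single genes, the groups did not overlap in CPM for 40.0% of all genes tested. Each of the 5 had p = 0.1 in a two-sided exact permutation test over the 6 libraries, which is the smallest p that 3 libraries against 3 allow, and 0.4 after Benjamini-Hochberg adjustment over the 20 ratios. The change in the log2 ratio of *Farsb* to *Farsa* was -0.70 (SDs 0.08 in WT and 0.14 in *Sirt6* KO), and that of *Tarsl2* to *Tars* was -0.72 (SDs 0.19 and 0.06).

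**Figure D3:**
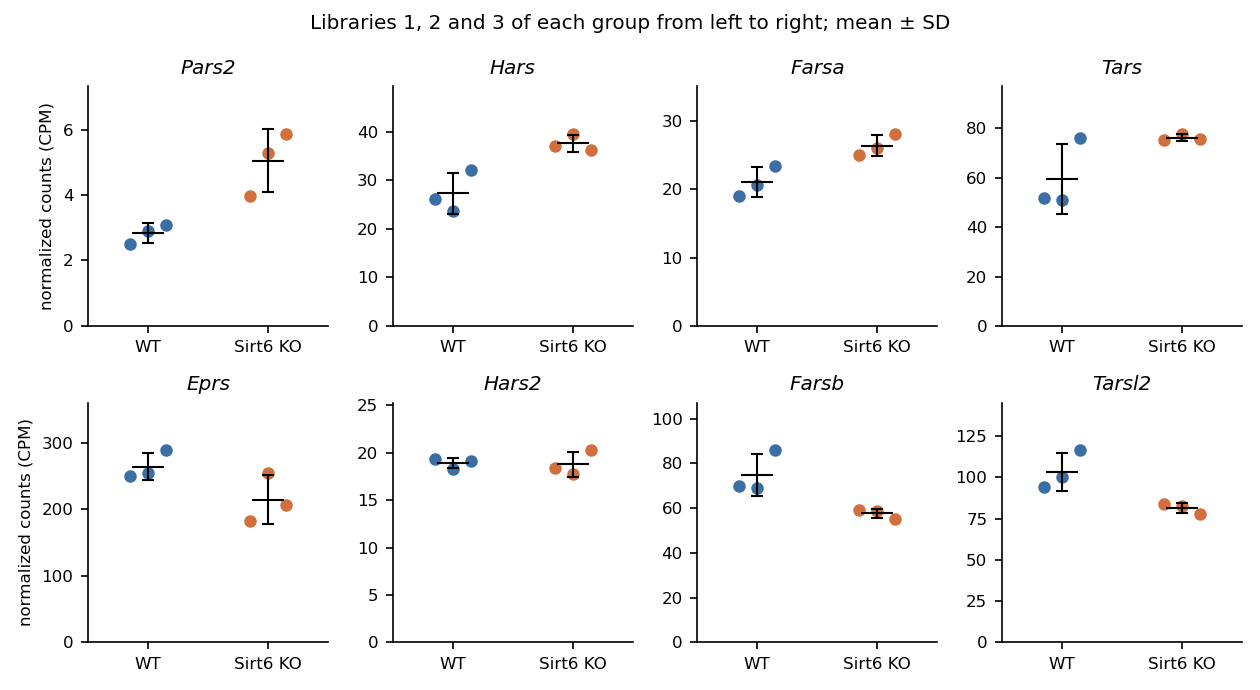
CPM of 8 synthetases in WT and *Sirt6* KO, with 1 point per library (libraries 1, 2 and 3 from left to right) and the mean ± SD of each group in black, on axes that start at 0. *Pars2*, *Hars* and *Farsa* sit higher in all *Sirt6* KO libraries and *Farsb* and *Tarsl2* lower, while *Tars*, *Eprs* and *Hars2* overlap between the groups.

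WT library 3 bore on the cytosolic values. In CPM it was the highest of the 3 WT libraries for 20 of 21 cytosolic enzymes and for 4 of 17 mitochondrial ones, and its cytosolic sum was 2049 CPM, against 1639 and 1642 in WT libraries 1 and 2 and 1686, 1906 and 1828 in the *Sirt6* KO libraries. In TPM it was the highest for 10 of 21 cytosolic enzymes and for 1 of 17 mitochondrial ones. Without this library 8 synthetases were called higher (*Farsa*, *Hars*, *Kars*, *Mars*, *Qars*, *Tars*, *Vars* and *Pars2*) and 1 lower (*Farsb*), or 9 of 38 where 32.5% of all genes were called (16.7% higher and 15.7% lower). Left out one at a time, each of the other 5 libraries left 0 synthetases called. Few genes were called in all in those fits. There were 440 and 249 without WT libraries 1 and 2, and 8, 873 and 13 without *Sirt6* KO libraries 1, 2 and 3, of 13990 to 14115 tested.

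The scale also bore on the direction. In TPM the median ratio of *Sirt6* KO to WT over all genes tested was 0.911, and the 38 synthetases had a median of 0.983, the cytosolic ones 1.06 and the mitochondrial ones 0.915. On that scale 5 synthetases had all *Sirt6* KO libraries above all WT libraries (*Farsa*, *Hars*, *Mars*, *Tars* and *Pars2*) and 6 had them all below (*Dars*, *Eprs*, *Farsb*, *Nars*, *Tarsl2* and *Ears2*). These 11 are 28.9% of the synthetases, where the background over all genes was 39.2% (16.0% higher and 23.2% lower). *Eprs* and *Nars* had TPM ratios of 0.751 and 0.804, which remain below that median of all genes.

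The fold changes of the synthetases ran with base composition. Across the 38 genes, the GC content of the longest annotated transcript and the log2 fold change had a Spearman rho of 0.52, a description across genes that share libraries, against 0.34 across the 13271 tested genes with a known GC content. Of the 19 synthetases with the lower GC content (38.8% to 48.3%), 7 had fitted values above 0 and 12 below, and of the 19 with the higher GC content (49.4% to 60.9%), 15 had values above 0 and 4 below. With a GC trend removed from each library, rho was 0.05 over the 38, and 0 synthetases were called, where 7.01% of all genes were. *Mars2*, at the lowest GC content, moved from 0.34 to 0.69 (edgeR adjusted p = 0.0573), and *Aars2*, near the highest, from 0.35 to 0.09. *Farsa* and *Farsb* kept opposite signs, at 0.303 and -0.28.

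**Figure D4:**
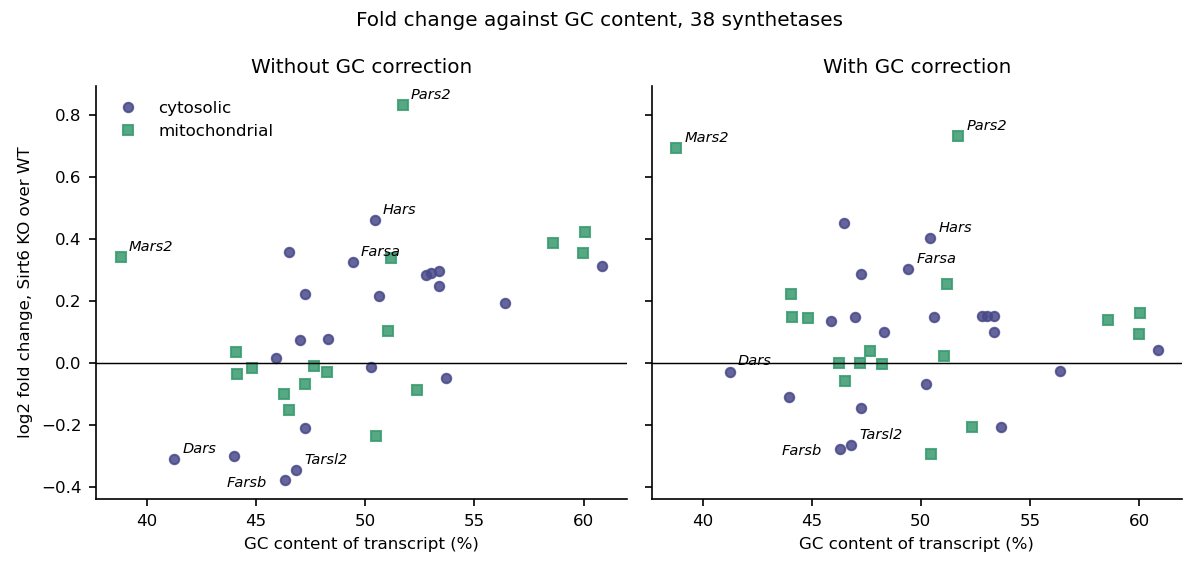
Log2 fold change of *Sirt6* KO over WT against the GC content of the longest transcript (percent) for 38 synthetases, without (left) and with (right) the GC correction, circles cytosolic and squares mitochondrial. The points rise to the right on the left panel (rho 0.52) and not on the right panel (rho 0.05), where *Pars2* stays among the highest values.

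Around the synthetases, the components of the charging pathway were described from lists of other genes. They are read against the background of 16.2% called (7.85% higher and 8.39% lower) and 40.0% without overlap in CPM. Of the 3 scaffold proteins of the multisynthetase complex, 1 was called. *Aimp2*, which holds parts of the complex together, was at 74.4, 97.4 and 139 CPM in WT and at 239, 166 and 225 CPM in *Sirt6* KO, without overlap, and rose with a log2 fold change of 1.02 (SE 0.25, edgeR adjusted p = 0.0345, and 0.0739 with the GC correction). With single libraries left out, 8 to 4582 genes in all were called. In those fits the adjusted p of *Aimp2* stayed under 0.05 in 2 of 6 cases and reached 0.121. Its exons overlap 487 bases of *Eif2ak1* on the opposite strand. *Aimp1* (log2 fold change -0.15, edgeR adjusted p = 0.381) and *Eef1e1* (0.02, edgeR adjusted p = 0.916) did not pass.

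Of 4 editing and deacylation genes, which remove wrongly attached amino acids, 2 were called higher and 0 lower. *Dtd1*, a D-aminoacyl-tRNA deacylase, was at 6.84, 7.62 and 8.69 CPM in WT and at 12.0, 10.5 and 10.7 CPM in *Sirt6* KO (log2 fold change 0.52, SE 0.14, edgeR adjusted p = 0.0464, and 0.0992 with the GC correction). *Dtd2*, the other called gene of this list, was at 3.05, 3.31 and 3.25 CPM in WT and at 5.503, 5.098 and 4.67 CPM in *Sirt6* KO (log2 fold change 0.67, SE 0.16, edgeR adjusted p = 0.034, and 0.0412 with the GC correction). The groups did not overlap for either gene. With single libraries left out, each stayed under an adjusted p of 0.05 in 1 of 6 cases, without WT library 3, and lost its call without each of the other 5 libraries. Leaving out those 5 one at a time left 8 to 873 genes called in all.

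Of 12 genes for the maturation of mitochondrial tRNAs, 2 were called higher and 1 lower. *Pus1*, a pseudouridine synthase, was at 9.002, 9.12 and 9.16 CPM in WT and at 15.1, 15.5 and 16.6 CPM in *Sirt6* KO, a log2 fold change of 0.79 (SE 0.11, edgeR adjusted p = 0.0131). On the opposite strand, its exons overlap 296 bases of *Gm26515* and 138 bases of *Gm15559*, and those of *Elac2* overlap 31 bases of *Arhgap44*. *Elac2*, the nuclease that trims the 3′ ends of tRNAs, was at 22.8, 20.5 and 29.9 CPM in WT and at 33.4, 35.8 and 41.1 CPM in *Sirt6* KO, a log2 fold change of 0.59 (SE 0.16, edgeR adjusted p = 0.0476, and 0.136 with the GC correction). *Trmt10c*, a subunit of the mitochondrial RNase P that cuts the 5′ ends, was at 26.02, 24.9 and 26.3 CPM in WT and at 15.1, 19.0 and 16.9 CPM in *Sirt6* KO, and fell by 0.60 on the log2 scale (SE 0.12, edgeR adjusted p = 0.0203, and 0.0958 with the GC correction). The groups did not overlap for these 3 genes, whose roles cover both ends and the body of the tRNA. With single libraries left out, *Pus1* stayed under an adjusted p of 0.05 in 4 of 6 cases, *Trmt10c* in 2 and *Elac2* in 1. Without *Sirt6* KO library 1 or 3, none of the 3 did, where 8 and 13 genes in all were called.

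The steps that follow charging gave no call. Of 4 genes that complete mitochondrial glutaminyl-tRNA and formyl-methionyl-tRNA, 5 that deliver charged tRNA to cytosolic ribosomes and 4 that do so in mitochondria, 0 passed edgeR's test. In that test 1, 2 and 1 of them had an unadjusted p under 0.05, where 35.3% of all genes did. The median log2 fold changes of these 3 lists were -0.14, 0.201 and -0.04.

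The integrated stress response, which links uncharged tRNA to the synthetase genes, had 4 of its 15 listed genes called lower and 0 higher. Over all genes tested, 8.39% were called lower and 7.85% higher. Of the 15, 7 had fitted values above 0 and 8 below, from -1.38 to 0.78. The median log2 fold change of the response was -0.37, and -0.17 with the GC correction. *Atf4*, its main transcription factor, was at 251, 276 and 273 CPM in WT and at 141, 176 and 198 CPM in *Sirt6* KO, and fell by 0.64 on the log2 scale (SE 0.15, edgeR adjusted p = 0.0316). *Asns*, the asparagine synthetase gene that ATF4 induces, was at 2.01, 2.59 and 1.57 CPM in WT and at 0.649, 0.874 and 0.962 CPM in *Sirt6* KO, and fell by 1.31 (SE 0.29, edgeR adjusted p = 0.0293). The groups did not overlap for either gene, nor for the 2 genes that follow. Over all genes tested, 19.6% had all *Sirt6* KO libraries below all WT libraries in CPM.

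*Ppp1r15a* and *Ppp1r15b* encode the subunits that bring a phosphatase to the initiation factor at which the response begins. *Ppp1r15a* was at 82.6, 126 and 109 CPM in WT and at 31.5, 45.8 and 44.9 CPM in *Sirt6* KO, and fell by 1.38 on the log2 scale (SE 0.20, edgeR adjusted p = 0.0132). *Ppp1r15b* was at 34.7, 39.3 and 39.2 CPM in WT and at 20.5, 24.4 and 23.9 CPM in *Sirt6* KO, and fell by 0.72 (SE 0.11, edgeR adjusted p = 0.0144). On the opposite strand, the exons of *Ppp1r15b* overlap 640 bases of *Gm26616*, and those of *Ppp1r15a* 11 bases of *Tulp2*. All 4 genes stayed under an adjusted p of 0.05 with the GC correction. Leaving out 1 library at a time, *Ppp1r15a* stayed under it in 4 of 6 cases, *Ppp1r15b* in 3, and *Atf4* and *Asns* in 1. Those fits called between 8 and 4582 genes in all.

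The promoters of the synthetases were searched for the element through which ATF4 acts, in RefSeq windows on GRCm38.p6 that run from 250 bases before to 50 bases after the annotated start. Windows were found for 14 of 21 cytosolic and 14 of 17 mitochondrial genes. The letters TGATGNAAN, in which N is any base, occurred on either strand for 5 of the 14 cytosolic genes and 0 of the 14 mitochondrial ones. Of all 32851 windows, 3.95% held them. That share is per window, and a gene may have several windows, so it is not a share of genes. The 5 genes were *Aars*, *Gars*, *Iars*, *Tars* and *Yars*, and the window of *Asns* held the letters as well. Their sequences are shown because they set these synthetases beside *Atf4* and *Asns*; each line is the gene's own strand, 5′ to 3′, with the 9 matching bases in capitals.
Aars, chr8:111033840-111033868 (plus strand): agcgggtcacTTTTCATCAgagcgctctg
Gars, chr6:55037960-55037988 (plus strand): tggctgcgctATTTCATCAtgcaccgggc
Iars, chr13:49682126-49682154 (plus strand): cactgtcagtATTGCATCAcctccagacg
Tars, chr15:11399656-11399684 (minus strand): caggagtcccGTTGCATCAgctggttagc
Yars, chr4:129189896-129189924 (plus strand): cgagctcagcTGATGCAACccgacgggac
Asns, chr6:7693214-7693242 (minus strand): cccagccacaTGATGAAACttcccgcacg

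In *Yars* and *Asns* the letters stand on the gene's strand, and in the others on the opposite strand, where the capitals are the reverse complement. The matches shown for *Aars*, *Gars*, *Iars*, *Tars* and *Yars* lie between 31 bases before and 9 bases after the annotated start. A match is a run of letters and not a measured binding site.

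These 5 synthetases did not follow *Atf4* and *Asns* past the test. Their log2 fold changes were 0.19 (SE 0.14) for *Aars*, -0.01 (SE 0.15) for *Gars*, 0.08 (SE 0.16) for *Iars*, 0.36 (SE 0.17) for *Tars* and 0.28 (SE 0.18) for *Yars*, the groups overlapped for each, and 0 of the 5 were called. The lower ends of their 95% confidence intervals lay between -0.37 and -0.03. The fitted value of *Atf4* was -0.64, with a 95% confidence interval of -0.98 to -0.29. The interval of *Gars*, -0.37 to 0.34, overlapped that of *Atf4*. These are transcript values, and ATF4 protein was not measured. Whether ATF4 acts on these genes in this muscle was not tested. For *Aars*, 1326 bases of its exons are shared on the same strand with *Exosc6*, and its count is uncertain for that reason.

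**Figure D5:**
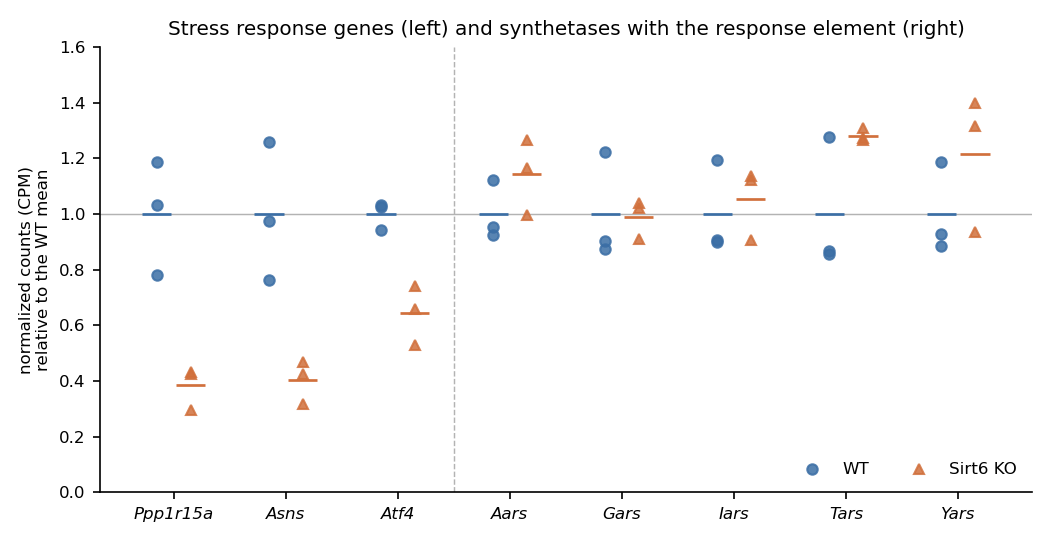
CPM relative to the WT mean of each gene, with 1 point per library (circles WT, triangles *Sirt6* KO, n = 3 each) and lines at the group means, for *Ppp1r15a*, *Asns* and *Atf4* (left of the dashed line) and for the 5 synthetases whose promoter window holds the response element (right). The *Sirt6* KO means are 0.385, 0.403 and 0.643 of WT on the left and between 0.991 and 1.28 on the right. The genes on the left were drawn from the 4 of 15 listed stress response genes that were called lower. Of those 15, 7 had fitted values above 0. The genes on the right were chosen by promoter letters and not by their change, so the 2 sides differ in how they were selected.

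Other letters were searched in the same windows, and no difference between the compartments was tested. The core of the motif of NRF1, a factor known for nuclear genes of mitochondrial proteins, is GCGCATGC. It stood in windows of 0 of 14 cytosolic and 3 of 14 mitochondrial genes (*Rars2*, *Vars2* and *Wars2*), against 2.71% of all windows. The E-box CACGTG stood in windows of 4 cytosolic genes (*Aars*, *Farsb*, *Iars* and *Tars*) and 1 mitochondrial gene (*Ears2*), against 7.15% of all windows. The cyclic AMP response element TGACGTCA stood in 0 windows of either compartment, against 1.79% of all windows. These shares too are per window and not per gene. Among the genes with the NRF1 core, the log2 fold changes were -0.04 for *Rars2*, 0.39 for *Vars2* and -0.15 for *Wars2*, and 0 of the 3 were called.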

How the data were processed

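RNA-seq of 6 libraries (3 WT, 3 *Sirt6* KO) was analyzed. The read counts per gene that the authors deposited come from StringTie and are not normalized between libraries. Deposited alongside were FPKM values, scaled by the authors to length and library size, and TPM values, scaled to a fixed sum per library. Per the submitters' processing notes, HISAT2 2.1.0, Bowtie2 2.3.4.1 and StringTie 2.1.3b were used with the build mm10, while the reporting summary names STAR. The methods name an unstranded library kit and the labels a stranded one, and the strand setting of the counting is not given in the sources used here, so overlapping genes on opposite strands may share reads.

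Counts were fitted in R 4.3.3 with edgeR 4.0.16 (filterByExpr, 13801 genes kept, TMM, quasi-likelihood test, group as the only factor, Benjamini-Hochberg adjustment over all genes tested, threshold 0.05). TMM factors lay between 0.909 and 1.11, edgeR's common biological coefficient of variation came to 24.1%, and 1 count was worth 0.0165 to 0.0212 CPM. Levels between genes were compared in TPM only. The members, the gene lists and the tests were chosen with earlier results of these data known. Values in every library are given, by rule, for *Sirt6*, for synthetases with an adjusted p under 0.05 (and the cytosolic or mitochondrial partner for the same amino acid), for the 3 highest and 3 lowest in each compartment, and for called genes of other lists, up to 4 a list; *Hars2*, *Dars*, *Farsb*, *Lars*, *Tars* and *Tarsl2* were added after their values were seen. The values of 2 genes, which remain in all counts and medians, and 1 sequence are not reported here.

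Alternatives were DESeq2 1.42.0, its size factors, the same fit without its filter or with a minimum of 10 counts in each library, limma 3.58.1 on FPKM values that were quantile-normalized after log2 transformation with a pseudocount of 1 or 0.1, replicate numbers as a block, omission of each library in turn, and a GC correction (a lowess trend per library, span 0.3, over the longest GENCODE M21 transcript, known for 13271 genes or 96.2%), alone and with the block. The scripts were tested on simulated counts. Shared stretches (at least 100 bases at 95% identity) were found with blastn 2.17.0, and overlaps from the GENCODE annotation. Promoter windows are those of RefSeq on GRCm38.p6, which is mm10.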

Additional observations from a re-analysis of the deposited data

How the results depend on the processing

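The count of synthetases called lower, 0, became 3 with DESeq2, 3 with limma on log2(FPKM + 1) and 2 on log2(FPKM + 0.1), and lay between 0 and 1 with single libraries left out. The count called higher, 1, became 2 with DESeq2, with DESeq2's size factors, with at least 10 counts in every library and with limma at either pseudocount, 0 with the GC correction and 0 with the GC correction and block together, and lay between 0 and 8 with single libraries left out. For the cytosolic enzymes the 0 called became 4 with DESeq2, 1 with DESeq2's size factors, 1 with at least 10 counts in every library, 4 and 3 with limma at the larger and smaller pseudocount, and 0 to 8 with single libraries left out. For the mitochondrial enzymes the 1 called became 0 with the GC correction, with and without the block, and 0 to 1 with single libraries left out. Without WT library 3 the counts rose to 8 higher and 1 lower. Without *Sirt6* KO library 1 or 3, 8 and 13 genes in all were called. The cause of these shifts was not tested. The mitochondrial median log2 fold change, -0.01, was 0.0925 with the GC correction and 0.0872 with the GC correction and block together, a move larger than the pooled SD of 0.046 between libraries of the per-library median, and with single libraries left out it lay between 0.006 and 0.034. The cytosolic median, 0.19, was 0.10 with the GC correction and lay between 0.13 and 0.27 with single libraries left out, within the pooled SD of 0.17. No synthetase that was called changed sign.

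With the replicate number as a block, 1 synthetase was called higher (*Pars2*, edgeR adjusted p = 0.0404) and 0 lower, with 0 cytosolic and 1 mitochondrial call. Among the genes outside the synthetases, *Dtd1*, *Dtd2* and *Asns* were no longer called. The block fit called 13.9% of all genes. Libraries of the same number had correlated deviations of -0.106, 0.26 and 0.161, and not every library correlated best with its own number. The libraries were not treated as paired, since 1 of the 3 correlations was below 0.1.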
